A study of Mus musculus with 22 samples.

Results

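Control mouse embryos were compared at GD9:12 and GD9:00, that is at gestational day 9, hour 12, and gestational day 9, hour 0, in RNA of the anterior neural tube. The arrays were those titled as control neural tube at each stage: 3 at GD9:12 and 4 at GD9:00, 7 of the 22 one-colour CodeLink arrays of the series, with 1 RNA sample on each. The study asked which genes arsenic changes in embryos that lack Folr2, a membrane protein that binds folate, and its other 15 arrays are arsenic samples at both of these stages and control and arsenic samples at GD8:15. Every embryo of both control groups was Folr2 nullizygous, and every dam had been injected intraperitoneally with water (10 µL per g of body weight) on GD7:12 and GD8:12. The GD9:12 samples were taken 24 h, and the GD9:00 samples 12 h, after the second of these injections. The deletion and the injections are therefore shared by both groups, and no Folr2+/+ or uninjected embryos were analysed here. The labels do not say whether the embryos of a group came from separate dams, so a p-value here refers only to the spread among these arrays.

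Over this interval of mouse development the neural folds of the head meet and fuse, and the closed tube acquires its main divisions. As background, signals from its roof (Wnt and Bmp proteins) and floor (Sonic hedgehog) set the dorsal and ventral identity of dividing progenitors, while the boundary between midbrain and hindbrain secretes Fgf and Wnt proteins. The first neurons leave the cell cycle at about this age, under the control of Notch signalling. Embryonic cells of early organ stages rely on glycolysis and live at low oxygen, and blood begins to circulate as the heart starts to beat.

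The values are deposited intensities, log2 transformed and quantile normalised over all 22 arrays, and a difference of 1 is a 2-fold change. Log2 intensities of array pairs correlated across probes with r of 0.955 to 0.976 within GD9:12, 0.886 to 0.964 within GD9:00 and 0.859 to 0.941 between the stages. Before normalisation the mean deposited intensity was 1000 on GD9:12 arrays and 500 on GD9:00 arrays. The authors' scaling therefore differed between the stages, and stage and processing set cannot be told apart. On the GD9:00 arrays stretches of neighbouring probe numbers read low together. Such low runs held 18.4%, 19.2%, 3.66% and 11.1% of the probes of the 4 GD9:00 arrays, and 2.29% of the probes of 1 GD9:12 array and none of the other 2. Below, a value called masked leaves out the values in low runs. Of 120 called genes printed here, 43 had a control value in a low run. Masked, 31 of the 43 were called, 8 were not (Celf3, Fzd3, Hba-x, Bub1, Ccnd1, Plagl1, Slit2 and Cdx2) and 4 could not be fitted (Pde6g, Barhl1, Birc5 and Pcp2). The other 77 were all called with or without masking. The titles end in number codes whose meaning the labels do not give. By the first 3 digits of its code, array 1 of GD9:12 stood apart from the other 6 arrays. Arrays that share these digits are called a slide series below, an assumption that was not tested.

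**Figure D1:**
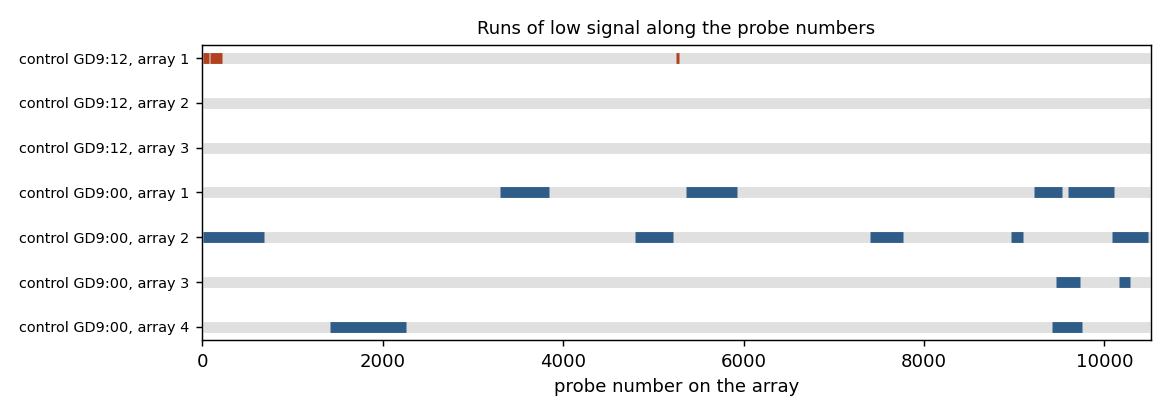
Stretches of low signal along the probe numbers (x axis) on each of the 7 control arrays, with the GD9:12 arrays above the GD9:00 arrays; coloured bars mark the low runs and grey the rest. They cover 18.4%, 19.2%, 3.66% and 11.1% of the probes of the 4 GD9:00 arrays, against 2.29% on array 1 of GD9:12 and none on its other arrays.

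Levels of neural progenitor markers ranged widely in both groups. Mdk, a growth factor of neural progenitors, averaged 14.59 at GD9:12 and 14.24 at GD9:00, and Sox11, a transcription factor of the early neural lineage, 12.15 at GD9:12 and 11.40 at GD9:00. The progenitor factor Sox2 lay at 8.22 at GD9:12 and 8.38 at GD9:00, at the 77th percentile of all probes. Pax6 lay at the 48.7th percentile, Prom1 at the 45th, Sox9 at the 32.9th and the neural cadherin Cdh2 at the 26.2nd, close to the filter on dim probes. Folr2 itself was at the 2.93rd percentile, below that filter. It read 6.93, 7.05 and 7.10 at GD9:12 and 7.10, 7.10, 6.94 and 6.97 at GD9:00, a difference of -0.00387 (two-sided exact permutation test over the 7 arrays, p = 1).

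Of 7830 probes tested, 880 (11.2%) were called, meaning a Benjamini-Hochberg adjusted p of under 0.05 in limma, and 581 of them (7.42% of those tested) were lower and 299 (3.82%) higher at GD9:12. A further view without a model gave 1211 probes (15.5%) with all GD9:12 arrays below all GD9:00 arrays and 1144 (14.6%) with all above. Of the called probes 247 were at least 2-fold lower and 136 at least 2-fold higher. At the 4-fold level the counts were 37 lower and 10 higher. Counted by gene, 3.77% of 7187 genes were called higher and 7.61% lower. Each list count below is to be read beside these shares. The probes called lower were bright at GD9:00, where the median of their mean levels was 8.687 against 7.849 for all tested probes. Centring each array on its median in place of quantile normalisation gave 745 higher and 619 lower, so that 45.4% of calls were lower where the main analysis had 66%. Without array 1 of GD9:12, which leaves a single assumed slide series, 538 probes were called (165 higher, 373 lower). Without array 2 or array 3 of GD9:12 the totals were 458 and 402. Under the scaling of the authors 5509 probes were called higher and 103 lower, with the median of all probes at 0.785 in place of 0.0321.

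The 15 largest falls and the 15 largest rises among genes whose groups did not overlap are shown array by array. Among the falls, all 15 stayed called when values in low runs were left out. Among the rises, 11 of 15 had at least 1 GD9:00 value in a low run, and 4 (Wfdc1, Zic1, Fgf18 and Acp5) had none. Over all probes called higher, 57.5% had a GD9:00 value in a low run, against 18.1% of those called lower and 45.2% of all tested. With the low runs masked, 230 of the 299 higher calls and 567 of the 581 lower calls were kept. That fit made 259 higher calls (3.37% of 7680 probes) and 844 lower calls (11%).

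**Figure D2:**
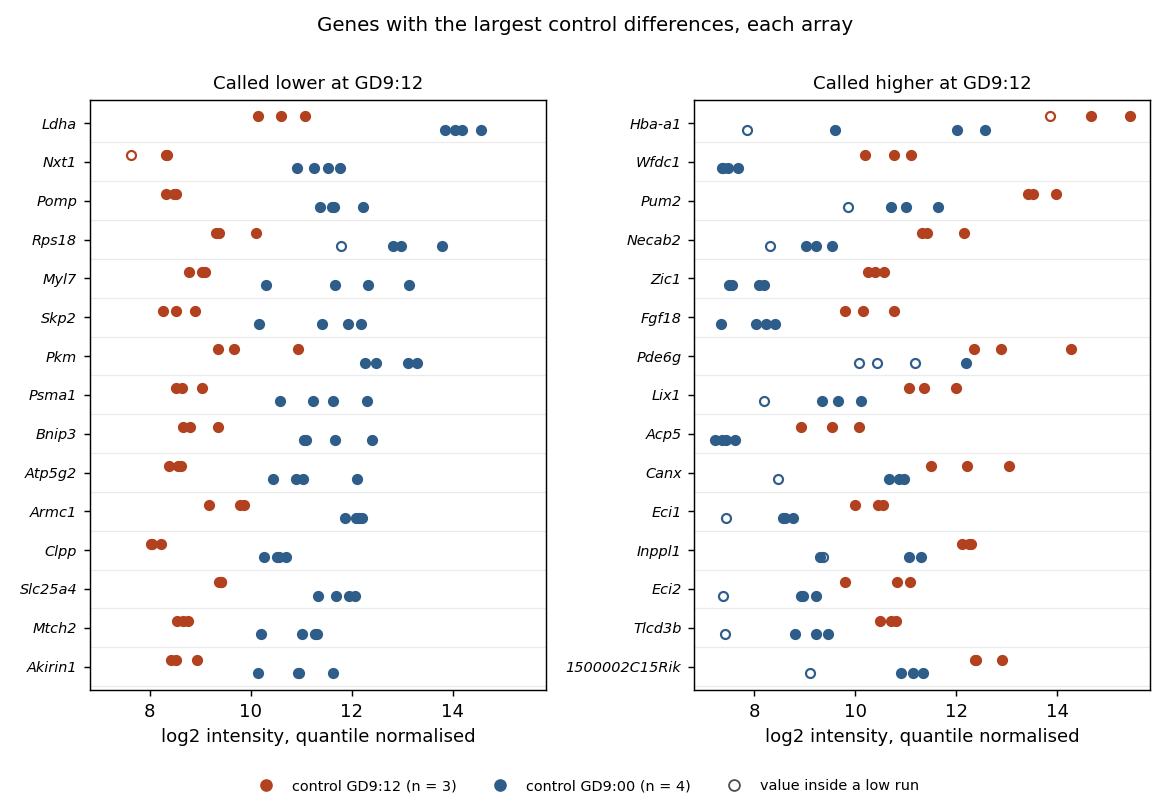
Log2 intensity (x axis, quantile normalised) of the 15 genes with the largest falls (left) and rises (right) between the control groups; each point is 1 array, with GD9:12 (red) above GD9:00 (blue) in a row, and open points lie in a low run. Genes were chosen for groups that do not overlap, so the groups are apart in every row; among the rises, 11 of 15 genes have an open GD9:00 point.

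Glycolysis and its oxygen-regulated neighbours held the largest single fall. Ldha, the enzyme that turns pyruvate into lactate, had log2 intensities of 10.13, 11.07 and 10.60 at GD9:12, against 14.56, 14.19, 13.84 and 14.05 at GD9:00. Every GD9:12 array lay more than 2 log2 units below every GD9:00 array. The difference was -3.56 (SE 0.41, adjusted p = 7.65e-05) in limma, 11.8-fold lower. Pkm, the pyruvate kinase gene, read 9.34, 10.94 and 9.66 at GD9:12, against 13.11, 13.30, 12.48 and 12.27 at GD9:00. The groups were well separated, although array 2 of GD9:12 was higher than its partners, and the difference was -2.81 (adjusted p = 0.000782). For Bnip3, a mitochondrial protein that promotes mitophagy and is induced at low oxygen, the values were 8.80, 8.66 and 9.36 at GD9:12, against 11.09, 12.40, 11.05 and 11.67 at GD9:00, with no overlap and a difference of -2.61 (adjusted p = 0.00325).

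Of 28 tested members of the glycolysis and lactate list, 7 were called lower and none higher, where 7.61% of all genes tested were called lower and 3.77% higher. The list's median difference was -0.647, against 0.0321 over all tested probes, and 21 of its 28 members lay below 0. Under the authors' scaling its median was 0.125, with all probes at 0.785. Masked, the median was -0.737, and 10 of 27 members were lower and 1 higher. Pfkl, the liver type subunit of phosphofructokinase, fell by 1.12 on the log2 scale (adjusted p = 0.0112). Smaller falls came in 2 enzymes that use oxygen: P4ha1, which hydroxylates collagen, changed by -0.73 (adjusted p = 0.00622), and Egln1, the hydroxylase that marks hypoxia-inducible factor (HIF) for destruction, by -0.56 (adjusted p = 0.00821). P4ha1 and Egln1 both lay slightly above 0 under the authors' scaling. Egln3, Slc2a1 and Vegfa, named after their values were seen, were among the 7 members above 0. Egln3 differed by 1.22 (adjusted p = 0.0558 in limma), Slc2a1 by 0.42 and Vegfa by 0.33. None of them passed, but masked Egln3 was the 1 member called higher (adjusted p = 0.033 in limma). Less RNA per cell and fewer cells of a type cannot be told apart in these dissected tissues, here and in every result that follows.

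Promoters of Ldha and Bnip3, chosen from the 7 called members as examples that hold the motif described next, are shown as RefSeq gives them (GRCm38.p6, 250 bases before to 50 after the start of the gene, 5′ to 3′ on the gene's strand). Capitals mark ACGTG on either strand, the core that HIF is known to bind, and it overlaps the E-box CACGTG, which other factors bind. The Ldha window is chr7:46845554-46845853 on the plus strand, the first listed of 2, and the Bnip3 window is chr7:138909457-138909756 on the minus strand.
Ldha: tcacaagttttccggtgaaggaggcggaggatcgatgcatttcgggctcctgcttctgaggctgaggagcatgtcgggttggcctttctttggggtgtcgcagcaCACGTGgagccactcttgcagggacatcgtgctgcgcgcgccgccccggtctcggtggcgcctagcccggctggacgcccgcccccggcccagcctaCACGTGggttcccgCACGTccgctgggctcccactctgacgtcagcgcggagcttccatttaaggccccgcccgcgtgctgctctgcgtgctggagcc
Bnip3: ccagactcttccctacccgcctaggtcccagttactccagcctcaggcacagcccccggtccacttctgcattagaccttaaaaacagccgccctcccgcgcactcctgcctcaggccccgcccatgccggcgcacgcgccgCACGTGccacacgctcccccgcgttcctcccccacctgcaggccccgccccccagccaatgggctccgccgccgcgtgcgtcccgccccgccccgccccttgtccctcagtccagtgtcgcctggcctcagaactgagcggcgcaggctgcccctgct
The Ldha window held 3 separate stretches with the letters and the Bnip3 window 1. Over all 32851 promoter windows 19.6% held ACGTG. Counted by gene, 21.8% of 27025 genes had it in at least 1 window, as did 20 of 26 glycolysis and lactate genes with a window and 6 of the 7 called lower. A share above that of all genes was not particular to this list. In the replication and cell cycle list, described below, 20 of 45 genes with a window (44.4%) held it too. These are counts of letters and say nothing on binding in this tissue.

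Where called, genes of mitochondrial respiration mostly fell. Atp5b, the catalytic beta subunit of ATP synthase, had values of 7.99, 8.28 and 8.07 at GD9:12, against 10.43, 10.34, 9.82 and 10.34 at GD9:00, a difference of -2.12 (SE 0.18, adjusted p = 3.34e-06) in limma. The groups lay more than 1.5 log2 units apart. Atp5g2, which encodes the membrane ring subunit of the same enzyme, read 8.37, 8.62 and 8.55 at GD9:12, against 12.09, 10.89, 10.44 and 11.03 at GD9:00. Its difference was -2.60 (adjusted p = 0.000228).

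Among 51 tested subunits of oxidative phosphorylation 9 (17.6%) were called lower and 2 (3.92%) higher. The list's median was -0.406, or 0.586 under the authors' scaling, and 0.133 in the arsenic arm. The complex I subunits Ndufa7 (-2.12), Ndufb3 (-0.97) and Ndufb2 (-0.94) fell. The 2 that rose were subunits of cytochrome c oxidase, Cox6a1 by 0.83 (adjusted p = 0.00506) and Cox6b1 by 0.94 (adjusted p = 0.00509); Cox6b1 was named after its value was seen. Other mitochondrial genes stood among the 15 largest falls: Slc25a4, the ADP/ATP carrier (-2.36), Clpp, a matrix protease (-2.41), and Mtch2, an outer membrane protein (-2.30).

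Proteasome genes were another group with a low median. Psma1, an alpha subunit of the 20S core, had 8.64, 9.03 and 8.52 at GD9:12, against 11.22, 12.31, 10.59 and 11.63 at GD9:00, with no overlap and a difference of -2.71 (adjusted p = 0.00307). Pomp, the chaperone that assembles the core, is outside the list and read 8.32, 8.51 and 8.48 at GD9:12, against 11.61, 12.22, 11.37 and 11.64 at GD9:00, a difference of -3.27 (SE 0.4, adjusted p = 0.000123) in limma. Its GD9:12 arrays lay within 0.2 of each other. Of 29 tested subunits 6 (20.7%) were called lower and none higher, and the median was -0.561, or 0.168 under the authors' scaling. The others called were Psma2 (-2.15), Psmb6 (-1.98), Psma7 (-1.83), Psmd6 (-1.70) and Psmd13 (-1.56). Without the values in low runs 11 were called lower, with a median of -0.900.

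Of 52 cytosolic ribosomal protein genes 7 (13.5%) were called lower and 1 (1.92%) higher. By sign alone the list divided more evenly, with 28 members below 0 and 24 above. The median was -0.105 (0.821 under the authors' scaling). Rps18 of the small subunit read 9.31, 10.10 and 9.36 at GD9:12, against 11.79, 13.79, 12.82 and 12.98 at GD9:00; its array 1 at GD9:00 lies in a low run, and without it the difference was -3.61 in place of -3.26. Rpl27a fell by 2.24 (adjusted p = 0.000911), Rpl9 by 1.50, Rpl13 by 1.29 and Rpl11 by 1.25, while Rpl29 rose by 0.56 (adjusted p = 0.00681). The fall of Rpl11 missed the threshold under median centring and under the authors' scaling. Ribosomal protein genes, Ldha and others of this kind have near-identical processed copies in the genome, so a probe may read more than its named gene.

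Most of the remaining large falls belonged to none of the lists. Skp2, the substrate receptor of an SCF ubiquitin ligase that degrades cell cycle inhibitors, had 8.52, 8.89 and 8.25 at GD9:12, against 12.19, 11.93, 10.15 and 11.40 at GD9:00, a difference of -2.87 (SE 0.36, adjusted p = 0.00014) in limma. Nxt1, a cofactor of mRNA export, read 7.63, 8.35 and 8.31 at GD9:12, against 11.76, 11.26, 10.91 and 11.53 at GD9:00; array 1 of GD9:12 lies in a low run, and without it the difference was -3.04 (adjusted p = 0.00496). Armc1 changed by -2.47 and Akirin1, a nuclear cofactor of transcription, by -2.30, both without overlap. A second probe of Armc1, dimmer, differed by -0.45 (adjusted p = 0.181). Jmjd6, a nuclear hydroxylase counted among the neural tube closure genes, read 8.03, 7.90 and 7.91 at GD9:12, against 10.59, 10.07, 9.70 and 9.66 at GD9:00, a difference of -2.06 (SE 0.26, adjusted p = 0.000145).

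Subunits of the DNA replication helicase were among the genes that fell. Mcm7, a subunit of the MCM helicase that is loaded onto replication origins, had 7.64, 7.86 and 7.59 at GD9:12, against 9.63, 9.60, 9.28 and 9.57 at GD9:00. The 4 GD9:00 arrays lay within 0.4 of each other and more than 1.4 above any GD9:12 array, and the difference was -1.82 (SE 0.24, adjusted p = 0.000181) in limma. Mcm5 read 7.58, 7.57 and 7.49 at GD9:12, against 8.69, 8.84, 8.40 and 8.40 at GD9:00, a difference of -1.04 (adjusted p = 0.000145). Another subunit, Mcm3, differed by -1.16 (adjusted p = 0.00816). Mcm4 (-1.03, adjusted p = 0.0548) and Mcm2 (-0.37, adjusted p = 0.0884) did not pass. Rfc1, the large subunit of the clamp loader, fell by 1.26 (adjusted p = 0.00307), and the G1 cyclin Ccnd3 by 0.89 (adjusted p = 0.00175).

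In the whole list of 60 tested replication and cell cycle genes 8 (13.3%) were called lower and 4 (6.67%) higher. The median was -0.142 (0.598 under the authors' scaling). The 4 that rose were Birc5, a mitotic survivin (1.85), Bub1, a spindle checkpoint kinase (0.74), Ccnd1 (0.69) and the cell cycle inhibitor Cdkn1c (1.35), of which the last 3 were named after their values were seen. All 4 had GD9:00 values in low runs. Without those values Birc5 could not be tested, Bub1 and Ccnd1 were no longer called (adjusted p = 0.09 and 0.105), and Cdkn1c remained called (1.07, adjusted p = 0.0191). In that fit 12 members were lower and 1 higher.

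The promoters of the 3 MCM genes, from RefSeq (GRCm38.p6) with the same window, carry the octamers that E2F factors are known to bind. Capitals mark TTTCCCGC, TTTCGCGC, TTTGCCGC or TTTGGCGC on either strand, and where 2 of them overlap the whole stretch is in capitals. The windows are chr8:75109259-75109558 (plus strand), chr5:138171834-138172133 (minus strand, the first listed of 2) and chr1:20820263-20820562 (minus strand).
Mcm5: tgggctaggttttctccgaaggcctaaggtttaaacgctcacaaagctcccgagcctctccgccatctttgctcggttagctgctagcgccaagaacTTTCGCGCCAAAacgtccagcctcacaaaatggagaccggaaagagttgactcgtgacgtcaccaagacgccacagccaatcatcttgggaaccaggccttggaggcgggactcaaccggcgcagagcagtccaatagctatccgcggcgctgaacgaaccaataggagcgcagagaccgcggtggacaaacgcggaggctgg
Mcm7: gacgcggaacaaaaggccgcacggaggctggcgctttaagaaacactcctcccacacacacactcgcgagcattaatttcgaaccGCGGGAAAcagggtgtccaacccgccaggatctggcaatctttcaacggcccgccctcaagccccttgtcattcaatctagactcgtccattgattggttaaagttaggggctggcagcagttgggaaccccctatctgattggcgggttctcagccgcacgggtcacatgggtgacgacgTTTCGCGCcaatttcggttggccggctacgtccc
Mcm3: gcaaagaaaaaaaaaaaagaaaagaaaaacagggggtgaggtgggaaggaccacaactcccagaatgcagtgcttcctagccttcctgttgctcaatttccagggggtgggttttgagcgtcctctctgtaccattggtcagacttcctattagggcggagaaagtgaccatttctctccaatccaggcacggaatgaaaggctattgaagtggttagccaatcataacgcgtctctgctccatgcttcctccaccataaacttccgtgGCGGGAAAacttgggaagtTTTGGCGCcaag
Each of the 3 windows held a match at 2 places. An octamer of this kind stood in 2.26% of all promoter windows and in at least 1 window of 2.60% of genes, against 14 of 45 replication and cell cycle genes with a window. Of the members called lower with a window 3 of 7 held it, namely these MCM genes. The promoters printed are thus exactly those of the called members that hold the octamer, and serve as examples only.

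Of all the lists, dorsal and ventral patterning held the most called rises. Zic1, a zinc finger factor of the dorsal neural tube, had 10.25, 10.40 and 10.56 at GD9:12, against 8.20, 8.10, 7.55 and 7.50 at GD9:00. All GD9:12 arrays were at least 2 log2 units above all GD9:00 arrays, none of the values lies in a low run, and the difference was 2.57 (SE 0.25, adjusted p = 1e-05) in limma, 5.94-fold higher. Wnt3a, a Wnt ligand of the roof plate, read 8.85, 9.76 and 8.75 at GD9:12, against 8.33, 7.56, 7.95 and 8.46 at GD9:00, without overlap and with a difference of 1.05 (adjusted p = 0.00783). Rspo3, a secreted protein that strengthens Wnt signalling, read 7.70, 8.41 and 8.68 at GD9:12, against 7.42, 7.49, 7.46 and 7.48 at GD9:00 and differed by 0.80 (adjusted p = 0.0361).

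Of 24 tested dorsal and ventral patterning genes 6 were called higher and 1 lower, and 19 of the 24 lay above 0. The median was 0.296, or 0.135 without the values in low runs. Gli2, the main activator of hedgehog target genes, rose by 1.03 (adjusted p = 0.0354), and Wnt4 by 0.54 (adjusted p = 0.00448), or 0.42 masked. Nkx2-2, a hedgehog target of the ventral tube, was called at 0.61 (adjusted p = 0.0182), but array 1 of GD9:12 (7.50, 8.22 and 8.26 over the 3 arrays) lay inside the GD9:00 range of 7.29 to 7.51. Bmp7, a roof and surface ectoderm signal named after its value was seen, fell by 0.66 (adjusted p = 0.0401). The number called higher dropped to 2 when the model held only the compared arrays, and Gli2, Rspo3, Nkx2-2 and Wnt3a each lost their call without array 2 of GD9:12, as some did without other arrays.

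Genes that mark the boundary of midbrain and hindbrain moved in opposite directions. Fgf18, an Fgf ligand expressed there, had 10.15, 9.79 and 10.77 at GD9:12, against 8.41, 8.22, 8.04 and 7.34 at GD9:00. The groups were more than 1.3 log2 units apart and the difference was 2.23 (SE 0.33, adjusted p = 0.000415) in limma. En2, the homeobox gene of the same region, read 10.25, 9.46 and 9.28 at GD9:12, against 8.75, 8.80, 8.15 and 7.06 at GD9:00; array 4 of GD9:00 lies in a low run, and without it the difference was 1.09 (adjusted p = 0.00736) in place of 1.47. Fgf15, an Fgf ligand of the early midbrain and hindbrain, fell by 0.67 (adjusted p = 0.0142), and the ephrin Efnb2 by 0.54 (adjusted p = 0.0021).

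Egr2, which specifies rhombomeres 3 and 5 of the hindbrain, showed the largest fall of this list. Its values were 7.28, 7.23 and 7.26 at GD9:12, against 9.36, 9.58, 9.37 and 8.95 at GD9:00. The 3 GD9:12 arrays lay within 0.1 of each other near the level of dim probes, and the difference was -2.05 (SE 0.4, adjusted p = 0.00325) in limma. In all, 2 of 17 members were called higher and 3 lower, with a median of 0.249; masked, Egr2 differed by -2.04 and 4 members were lower.

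In the forebrain and eye list 3 of 20 members were called higher and 1 lower, and the median was 0.323. Masked, the median was 0.205, with 3 higher and 2 lower, and under the authors' scaling it was 1.12. Otx2, which specifies forebrain and midbrain, read 7.78, 7.90 and 7.90 at GD9:12, against 8.92, 8.93, 8.53 and 8.96 at GD9:00, lower on every GD9:12 array, with a difference of -0.97 (adjusted p = 0.00159). Nkx2-4, a homeobox gene of the ventral forebrain, had 7.66, 8.96 and 9.24 at GD9:12, against 7.32, 7.21, 7.10 and 7.16 at GD9:00. Its rise of 1.42 rests mainly on arrays 2 and 3 of GD9:12, and array 1 was only slightly above GD9:00. Mab21l2, required for eye development, rose by 1.31 (adjusted p = 0.0117). Barhl1, a homeobox gene of the dorsal diencephalon and hindbrain, rose by 1.14, with 3 of its 4 GD9:00 values in low runs.

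**Figure D3:**
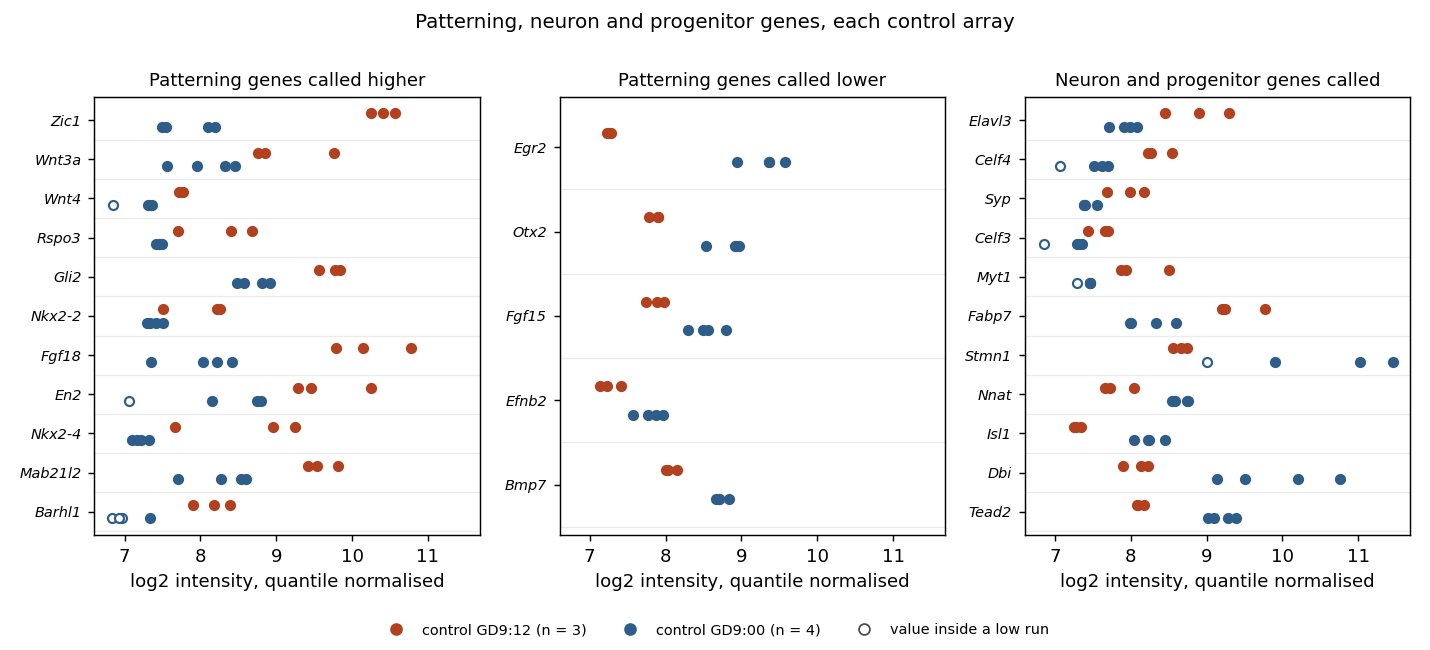
Log2 intensity (x axis, quantile normalised) of called patterning, neuron and progenitor genes; each point is 1 array, GD9:12 (red) above GD9:00 (blue), open points in a low run. The groups are apart in every row but Nkx2-2; Zic1 and Fgf18 rise by more than 2 log2 units, and Egr2 falls by as much.

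Genes of differentiated neurons moved in both directions. Elavl3, an RNA-binding protein of new neurons, had 8.45, 8.90 and 9.30 at GD9:12, against 7.71, 8.09, 7.99 and 7.92 at GD9:00, every GD9:12 array above every GD9:00 array, a difference of 0.96 (adjusted p = 0.0209). Other rises were those of the splicing regulators Celf4 (0.87, or 0.74 masked) and Celf3 (0.40, adjusted p = 0.037) and of the synaptic vesicle protein Syp (0.52). Stmn1, a regulator of microtubules in dividing and young neural cells, read 8.66, 8.55 and 8.74 at GD9:12, against 11.46, 11.03, 9.90 and 9.00 at GD9:00; its GD9:00 arrays spread over more than 2 log2 units, and the difference was -1.70 (adjusted p = 0.0127). Nnat, an imprinted membrane protein, fell by 0.85 (adjusted p = 0.00871). Masked, Celf3 differed by 0.28 and was not called (adjusted p = 0.0736). Of 29 tested members 4 (13.8%) rose and 2 (6.9%) fell, where 3.77% of all genes tested were called higher and 7.61% lower, and the counts were 3 each masked. The list's median was 0.130, and 14 further members on the array, Tubb3, Map2 and Elavl4 among them, were below the filter.

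Among 17 neurogenic transcription factors Isl1, a factor of motor and sensory neurons, fell, with 7.34, 7.25 and 7.28 at GD9:12, against 8.23, 8.46, 8.04 and 8.25 at GD9:00 and a difference of -0.95 (SE 0.14, adjusted p = 0.000496) in limma. Myt1, a zinc finger factor of neuronal precursors, rose by 0.68 (adjusted p = 0.0323). None of 18 Notch pathway genes was called by limma, and the ligand Dll3 lay at 10.01, 10.96 and 11.34 at GD9:12, against 10.24, 9.25, 9.80 and 9.47 at GD9:00 with overlap (difference 1.08, adjusted p = 0.0921). Of 27 neural progenitor genes 2 rose, Zic1 and Fabp7, and 3 fell, Dbi, Tead2 and Fzd3. Fabp7, the fatty acid binding protein of radial glia, had 9.20, 9.25 and 9.77 at GD9:12, against 8.00, 8.33, 7.99 and 8.59 at GD9:00, a difference of 1.18 (adjusted p = 0.0133). Dbi, which binds acyl-CoA, read 7.90, 8.13 and 8.23 at GD9:12, against 10.76, 10.21, 9.14 and 9.51 at GD9:00, a difference of -1.82 (adjusted p = 0.00239), and Tead2, the DNA-binding partner of Yap, differed by -1.08 (adjusted p = 0.00271).

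Of 52 Wnt, Fgf and Tgf-beta pathway genes 5 (9.62%) were called lower and none higher, near the 7.61% of all genes called lower, and the list's median was 0.121. They were the Wnt receptors Fzd2 (-1.22) and Fzd3 (-0.61), the receptor Fgfr1 (-0.62), Tcf3 (-0.66) and a target of Bmp signalling, Id3 (-1.26). Masked, Fzd3 was not called (-0.56, adjusted p = 0.0635), and Id3 (adjusted p = 0.0495) had overlapping groups. The array's name Tcf3 can stand for a bHLH factor or, in older usage, for a Wnt effector. In the retinoic acid list 1 of 13 rose: Aldh1a1, which makes retinoic acid, with 8.00, 7.98 and 8.14 at GD9:12, against 7.04, 7.10, 7.13 and 7.18 at GD9:00 and a difference of 0.93 (SE 0.11, adjusted p = 0.000104). Its 3 GD9:12 arrays all stood more than 0.7 above the 4 GD9:00 arrays.

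Folate enzymes were of interest because the embryos lack a folate-binding protein. Of 17 tested members 4 (23.5%) were called lower and none higher, with a median of -0.0268 (0.815 under the authors' scaling). Atic, which completes purine synthesis with a folate carrier, had 7.37, 7.51 and 7.29 at GD9:12, against 8.14, 7.97, 8.31 and 8.17 at GD9:00, a difference of -0.76 (SE 0.15, adjusted p = 0.00325) in limma. Shmt1, the cytosolic serine hydroxymethyltransferase, read 7.22, 7.13 and 7.16 at GD9:12, against 8.04, 8.02, 7.51 and 7.61 at GD9:00, a difference of -0.63 (adjusted p = 0.00359). Mthfs, which returns 5-formyl folate to the pool, fell by 0.63 (adjusted p = 0.0219), and Gart, another enzyme of purine synthesis, changed by -0.47 (adjusted p = 0.0477). Under the authors' scaling none of the 4 was called.

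Of 33 genes required for neural tube closure in mouse mutants 4 (12.1%) were called lower and none higher. The median was -0.0439 (0.672 under the authors' scaling). Jmjd6 is given above. The others were Gadd45a, a stress-induced growth arrest gene (-1.27 (adjusted p = 0.0203)), Fzd3 (-0.61 (adjusted p = 0.0344)) and the polarity kinase Mark2, whose fall was small at -0.31. Masked, Fzd3 was not called and 6 of 32 members were lower. In the stress response list Gadd45a and the asparagine synthetase Asns (-1.15 (adjusted p = 0.0377)) were the 2 of 26 called, both lower. Their share of the list, 7.69%, was near the 7.61% of all genes called lower.

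Called matrix and guidance genes moved in both directions. Col11a1, a fibrillar collagen chain, had 10.04, 10.22 and 10.61 at GD9:12, against 7.42, 9.22, 8.70 and 8.87 at GD9:00, a difference of 1.74 (adjusted p = 0.00725). Lama1, a basement membrane laminin chain, rose by 0.97 (adjusted p = 0.0404) and Col9a1 by 0.34, while the laminin receptor Itga6 fell by 0.45 (adjusted p = 0.0227). These 4 were the calls among 37 adhesion and matrix genes, whose median was 0.00869; masked, 4 were higher and 3 lower. Of 41 axon guidance genes 4 rose, the ephrin Efna2 (0.53), the semaphorin receptor Plxna1 (0.85, or 0.62 masked), Sema3e (0.41) and the repellent Slit2 (1.14), and 2 fell, the netrin receptor Unc5c (-0.71) and Efnb2. Masked, Slit2 was not called (1.08, adjusted p = 0.0754), leaving 3 higher and 2 lower.

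Of 15 imprinted growth genes Plagl1 (1.84) and Cdkn1c rose and Nnat and Igf2r (-0.94) fell; with the low runs masked Plagl1 was not called (adjusted p = 0.0703). Cdx2, a posterior homeobox gene, was the 1 call among 21 Hox, Cdx, Meis and Pbx genes, at 0.77 with 2 GD9:00 values in low runs, and it was not called without them (adjusted p = 0.196). Of 23 members of the axial and pluripotency list Otx2 fell and Lrpap1 rose (0.77, or 0.64 masked). Lrpap1 is a chaperone of lipoprotein receptors, so its rise is not read as one of axial or pluripotency genes. List names were matched by symbol or by a single synonym, so an entry may stand for another gene than the one meant.

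**Figure D4:**
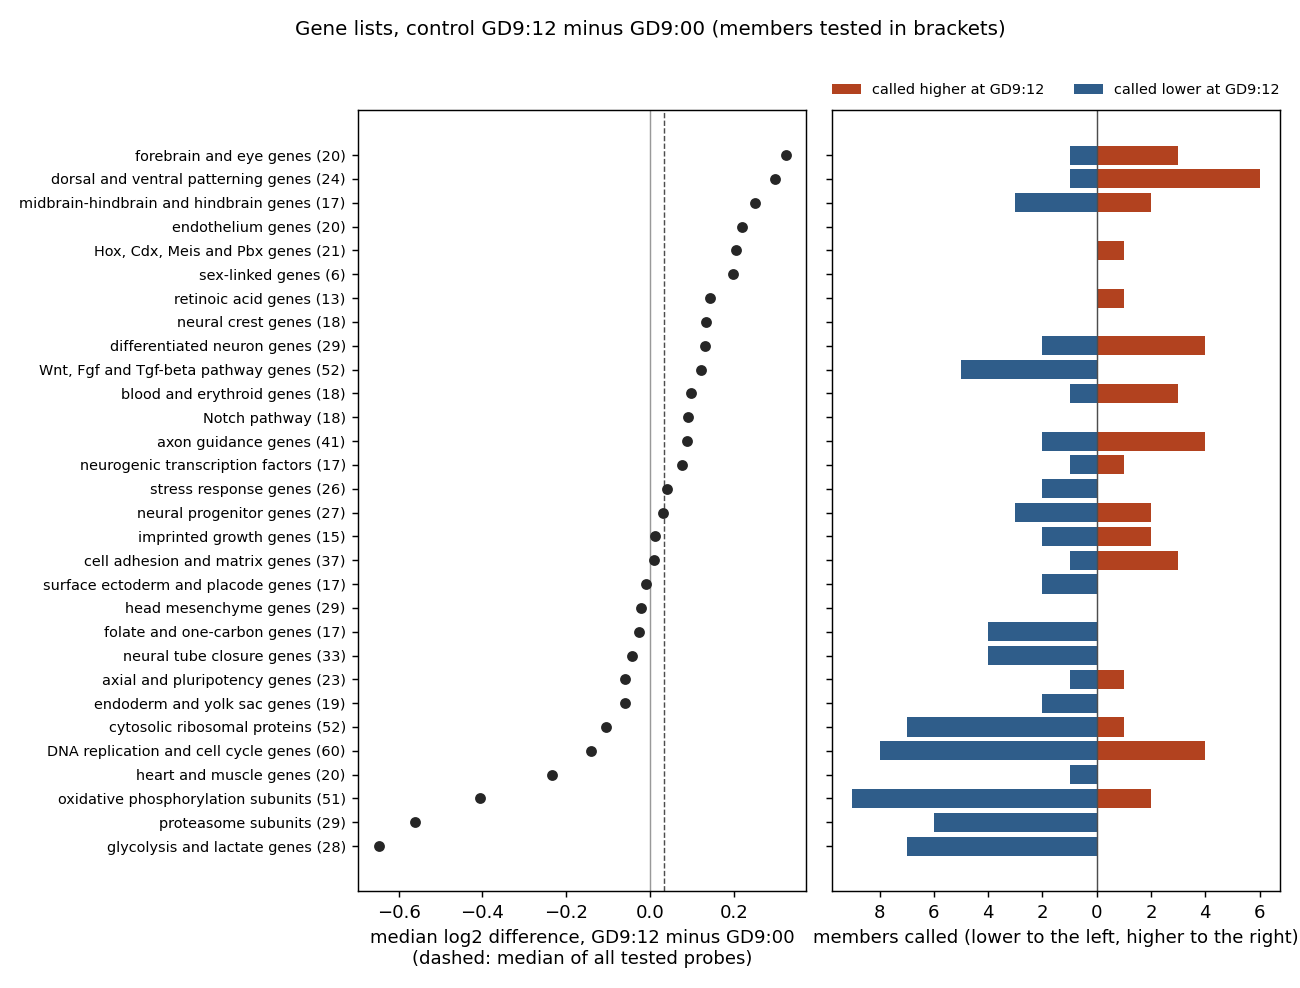
Median log2 difference of each gene list (left, control GD9:12 minus GD9:00, members tested in brackets, dashed line at the median of all probes, 0.0321) and number of members called lower or higher (right). Glycolysis (-0.647), proteasome (-0.561) and oxidative phosphorylation (-0.406) have the lowest medians and the forebrain list (0.323) the highest with low runs kept; masked, proteasome (-0.900) is the lowest and midbrain-hindbrain (0.236) the highest.

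Markers of tissues next to the neural tube also differed. Hba-a1, an alpha globin, had the largest rise of all named genes, with 13.87, 14.68 and 15.44 at GD9:12, against 12.57, 7.86, 12.02 and 9.60 at GD9:00. Its GD9:00 arrays spread over more than 4 log2 units, and without the 2 values in low runs, 1 of each stage, the difference was 3.66 in place of 4.15. The adjusted p was 0.00593 in limma, or 0.0744 when only the compared arrays were in the model. The embryonic globins Hbb-y (0.90 (adjusted p = 0.0278)) and Hba-x (1.06 (adjusted p = 0.0355)) were called too, though without its low-run value Hba-x was not (1.03, adjusted p = 0.0524), and Urod, an enzyme of heme synthesis, fell by 0.74 (adjusted p = 0.00325). These were the 4 calls among 18 blood genes. The summed linear intensity of that list ran from 24900 to 54400 over the GD9:12 arrays and from 7080 to 14700 over the GD9:00 arrays. Hba-a1 alone made up most of both the lowest and the highest GD9:12 sum, so the sums speak mainly for that probe. The list's median difference was 0.0978, with 12 members above 0 and 6 below. Epor, Slc4a1 and Ptprc were below the filter.

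Myl7, a myosin light chain of the atrium, had 8.77, 9.08 and 9.04 at GD9:12, against 10.29, 12.31, 11.67 and 13.14 at GD9:00. It was lower on every GD9:12 array (-2.89 (adjusted p = 0.00307)), and with all values kept it was the 1 call among 20 heart and muscle genes. The list's median difference was -0.235, with 13 members below 0 and 7 above. Masked, 3 of 18 members were called lower, and in the arsenic arm 6 were called lower, with none higher in either. The list's sum was 9240 to 18000 at GD9:12 and 10300 to 28400 at GD9:00, with Tnnt2, Myh6, Myh7 and 6 others below the filter. In the surface ectoderm list 2 keratins were called lower, Krt8 by 0.80 (adjusted p = 0.00107) and Krt18 by 1.41 (adjusted p = 0.0102). Masked, Krt18 differed by -1.76. These keratins were the 2 calls among the 17 members of the surface ectoderm list (11.8%). That list as a whole was evenly divided, with 8 members above 0, 9 below and a median of -0.00996. Sums of that list were 5850 to 6170 at GD9:12 and 6020 to 7300 at GD9:00. In the endoderm and yolk sac list Apoe, a lipid carrier, fell by 1.45 with values on 2 of the 3 GD9:12 arrays. Fgb, a fibrinogen chain, fell by 0.77, and these were the calls, 2 of 19 members (10.5%). The list's sums were 4650 to 5190 at GD9:12 and 5590 to 6230 at GD9:00, with Alb, Apoa2 and 6 others below the filter.

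No member of the neural crest (18), head mesenchyme (29) or endothelium (20) lists was called with all values kept. Endothelial sums were nevertheless apart, 10100 to 12200 at GD9:12 and 6730 to 8200 at GD9:00. The median difference of the endothelium list was 0.219, or 0.0855 masked, and 0.00844 in the arsenic arm. Head mesenchyme sums overlapped, at 13300 to 14100 at GD9:12 and 13100 to 17400 at GD9:00. Prrx2, the second of that list by p, had a difference of -1.48 that did not pass (adjusted p = 0.0892), with array 4 of GD9:00 in a low run, and without that value it was called (-1.96, adjusted p = 0.0179). Masking also gave calls for Six2 of head mesenchyme (-1.09, adjusted p = 0.0308) and Foxd3 of neural crest (-0.73, adjusted p = 0.0494), both lower and named after their values were seen. Neural crest sums were 11800 to 14100 at GD9:12 and 9270 to 69600 at GD9:00, and the upper end was the single value of Snai1, named after its values were seen, on array 3 of GD9:00, 15.86, where the other 3 arrays read 7.13 to 8.05. The part of blood, heart, ectoderm or endoderm tissue in the other results was not tested.

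Outside the lists, Wfdc1, a secreted protease inhibitor, had the clearest rise, with 10.19, 10.77 and 11.11 at GD9:12, against 7.67, 7.48, 7.37 and 7.38 at GD9:00. The GD9:00 arrays were all near the level of dim probes, none of the values lies in a low run, and the difference was 3.22 (SE 0.33, adjusted p = 1.34e-05) in limma, 9.29-fold. Acp5, an acid phosphatase, read 10.07, 8.92 and 9.54 at GD9:12, against 7.62, 7.37, 7.45 and 7.22 at GD9:00, a difference of 2.10 (SE 0.32, adjusted p = 0.000504). Pum2, an RNA-binding repressor of translation, read 13.97, 13.43 and 13.52 at GD9:12, against 11.02, 10.72, 11.64 and 9.86 at GD9:00, and without array 4 of GD9:00 its difference was 2.52 in place of 2.83. Necab2, a neuronal calcium-binding protein (2.61, or 2.38 masked), and Lix1 (2.15, or 1.78 masked) behaved alike in this respect.

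The other leading rises had larger differences with the low runs than without. The chaperone Canx differed by 2.01 and by 1.42 masked, and its second, dimmer probe by 0.43 (adjusted p = 0.256). The mitochondrial enoyl-CoA isomerases Eci1 and Eci2 each had array 1 of GD9:00 in a run. Eci1 read 10.00, 10.56 and 10.45 at GD9:12, against 7.43, 8.56, 8.77 and 8.60 at GD9:00, with a masked difference of 1.69, and Eci2 differed by 1.95 and by 1.53 masked. For Inppl1, an inositol phosphatase, the values were 1.96 and 1.66 masked, for Tlcd3b 1.94 and 1.51, and for 1500002C15Rik 1.93 and 1.42. Pde6g, a phosphodiesterase subunit best known in rod cells, had 3 of 4 GD9:00 values in runs and could not be fitted without them. All 14 leading rises that could be fitted without these values were still called.

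Levels at the earlier stage, GD8:15, are set beside these as values, since a contrast with GD9:00 would share its arrays. Pkm read 8.26, 8.04, 7.50 and 7.53 on the 4 control arrays of GD8:15, Skp2 7.83, 7.64, 7.40 and 7.63 and Atp5b 8.61, 8.16, 7.83 and 8.49. For all 3 the GD9:00 level stood above both the earlier and the later stage. Of 68 genes printed here as called lower, 62 had a lower mean at GD8:15 than at GD9:00, a count that rests on the GD9:00 arrays that made the calls. Most genes printed as called higher likewise had a higher mean at GD8:15 than at GD9:00, on the same arrays. Necab2 averaged 10.41 at GD8:15 and 9.02 at GD9:00, and Cox6a1 14.22 and 13.36, while Fgf18 averaged 7.66 and 8.00. GD9:00 was thus the outlying stage for calls in both directions. Ldha read 12.91, 13.21, 13.89 and 14.17 at GD8:15, close to its level at GD9:00, and Myl7 14.23, 12.74, 13.56 and 12.71, where only its highest GD9:00 array reached that range. Zic1 (7.69, 7.41, 7.31 and 7.22) and Wfdc1 (8.13, 7.57, 7.27 and 7.51) were as low at GD8:15 as at GD9:00. Pum2, at 12.84, 12.79, 11.68 and 13.06, lay between its levels at GD9:12 and GD9:00.

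The arsenic arrays of the same stages (4 at GD9:12, 3 at GD9:00) share no sample with the controls and cover the same interval after injection of 9.6 mg arsenic per kg. There 304 probes (3.88%) were called by limma, 149 (1.9%) higher and 155 (1.98%) lower. Of the 880 control calls, 195 (22.2%) were also called in the arsenic arm, which is 64.1% of the arsenic calls, and all 195 had the same direction. The sign was shared by 846 of the 880 control calls (96.1%), against 65.8% of all tested probes. Over all tested probes the differences of both arms correlated with r = 0.622, a description across probes that share arrays and normalisation. The median arsenic difference was 0.518 over probes called higher in controls and -0.416 over those called lower, where the control medians were 0.957 and -0.902. List medians did not all share their sign. Oxidative phosphorylation had -0.406 in controls and 0.133 in the arsenic arm, and dorsal and ventral patterning 0.296 and -0.034. Glycolysis had -0.647 and -0.401, and the proteasome -0.561 and -0.424. Lists were not tested between the arms.

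The leading control genes had the same sign in the arsenic arm in 15 of 15 falls and 15 of 15 rises, and 8 and 7 of them were called there. These counts of sign include differences near 0. Pde6g differed by 0.03 in the arsenic arm and 2.21 in controls, 1500002C15Rik by 0.16 and 1.93, and Eci2 by 0.44 and 1.95. All 3 had control GD9:00 values in low runs, which held only 0.733%, 0% and 0.629% of the probes of the arsenic GD9:00 arrays. Whether the runs account for this was not tested. Zic1 changed by 2.57 in the arsenic arm and 2.57 in controls, Hba-a1 by 3.88 and 4.15, Jmjd6 by -2.03 and -2.06, and Myl7 by -3.51 and -2.89. Ldha changed by -2.23 in the arsenic arm (adjusted p = 0.00522) and Wfdc1 by 2.03 (adjusted p = 0.00233). Pkm differed by -0.74 in the arsenic arm (adjusted p = 0.466), Skp2 by -1.14 (adjusted p = 0.0863) and Egr2 by 0.03 (adjusted p = 0.989).

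The difference of the change between the arms was tested for every probe as an interaction, and limma called none, with a lowest adjusted p of 0.767 and 500 probes at an unadjusted p under 0.05. The 5 of lowest p were Chst1, a sulfotransferase, Dtnbp1, a subunit of the BLOC-1 complex, Xist, Pcp2, a Purkinje cell protein, and Egr2. Xist changed by -3.0 in the arsenic arm (adjusted p = 0.0254) and 0.87 in controls (adjusted p = 0.468), and Chst1 changed by -0.88 in the arsenic arm and 1.26 in controls, Dtnbp1 by 0.26 and -0.77, and Pcp2 by -0.18 and 0.74. A change called in controls and not in the arsenic arm was thus not shown to differ between them.

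**Figure D5:**
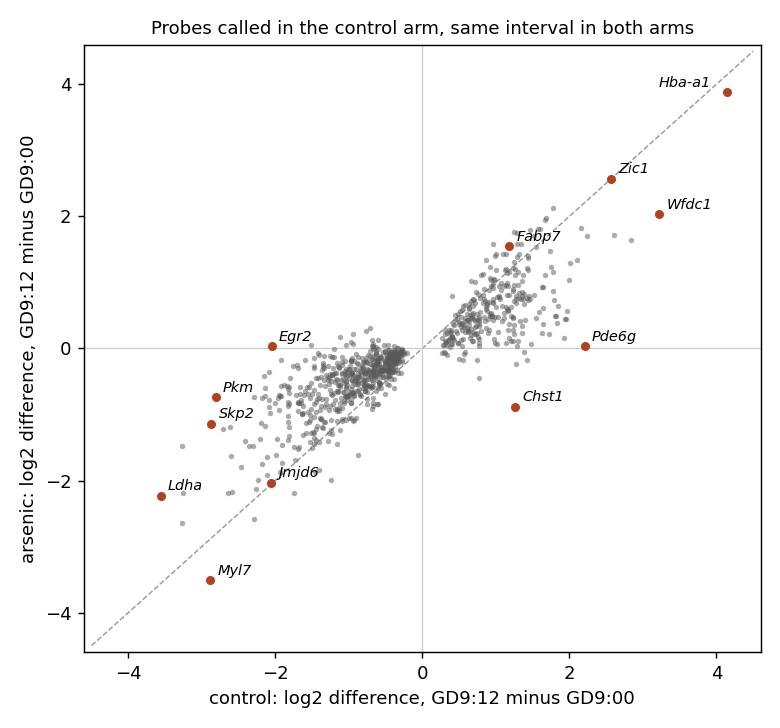
Log2 difference GD9:12 minus GD9:00 in arsenic arrays (y axis) and in control arrays (x axis) for the 880 probes called in controls; the dashed line marks equal change. Of the 880, 846 have the same sign in both arms, with Zic1, Jmjd6 and Hba-a1 near the line and Pkm, Skp2 and Egr2 nearer to 0 in the arsenic arm.

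Sex-linked transcripts were examined because the sex of the embryos is not in the labels. Xist, the RNA of the inactive X chromosome, was high on 1 array, with 11.34, 6.99 and 6.88 at GD9:12, against 8.71, 7.20, 7.12 and 7.10 at GD9:00 (two-sided exact permutation test, p = 0.714). Kdm5d, encoded on the Y chromosome, averaged 11.48 at GD9:12 and 10.00 at GD9:00 (exact permutation p = 0.114), and Eif2s3y differed by -0.133 (exact permutation p = 0.571). Exact permutation p-values were 0.2 for Uty, 0.314 for Sry and 0.171 for Zfy1, where 35 regroupings allow no p below 0.0286. In the arsenic arm limma called both Xist, as given above, and Eif2s3y (0.65, adjusted p = 0.0484). Ddx3y and Usp9y were not analysed here.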

How the data were processed

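The deposited values were linear intensities, whole numbers on a 10500-probe CodeLink array, per the file. Per the labels' protocols, total RNA was amplified with T7 RNA polymerase, labelled with biotin and detected with an Alexa Fluor streptavidin; the scanner software and the background correction are not given in the sources used here. The 838 values of 1 or 2 lay below the lowest real value, 56, and were set to missing (37 to 69 on each of the 7 arrays). The log2 intensities of all 22 arrays were quantile normalised. Testing required 2 or more values per group and a mean outside the dimmest 25% of probes (log2 7.2): 59 probes lacked values and 7830 were tested, of which 7283 carried 1 symbol (7187 genes; of all probes 8 had several symbols and 1114 none). R 4.3.3 and limma 3.58.1 (lmFit, eBayes) fitted 6 group means with Benjamini-Hochberg adjustment at 0.05; figures used Python 3.11.15 and matplotlib 3.10.9. The median SE of the difference was 0.198, so the number of arrays limits the precision.

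A low run was a stretch of at least 15 bright probes (mean log2 over 8.5) whose running median over 21 of them lay under -0.5 against the all-array median. Genes named were the 15 highest and 15 lowest differences among called probes whose groups did not overlap, the 6 list members of lowest p per list, the sex-linked genes, the 5 probes of lowest p in the interaction, and Folr2. The members, the lists and the tests were chosen with earlier results of these data known. A gene stands for its brightest probe. Of 94 genes with more than 1 tested probe, the differences of the probes correlated with r of 0.0334 and 45 pairs had opposite signs, so a value speaks for its probe. In 10 simulations of this comparison with 200 changed probes among 10499, recovery was 33.3% for 1.5-fold changes, 63% for 2-fold and 89.6% for 4-fold. Of the calls 4.9% were false. The simulated noise was independent between probes, without low runs and without a scaling difference between the stages. These shares therefore hold for that setting only and do not give the false share among the real calls. Alternatives were other scalings, filters, weights and models, masking of low runs, the assumed slide series as a block and leaving out arrays.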

Additional observations from a re-analysis of the deposited data

Results flagged for a closer look

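Of 129 genes examined in the 4 GD9:00 control arrays, 13 had 1 array whose gap to the nearest of the others exceeded Dixon's 95% critical value as a share of the group's range. Chance flags about 1 in 20 groups. In 9 of the 13 the odd value lay in a low run, and no cause was tested. On array 1 these were Eci1 (7.43, the others 8.56 to 8.77), Eci2 (7.37, the others 8.93 to 9.22), Wnt4 (6.85, the others 7.31 to 7.36), Celf3 (6.85, the others 7.29 to 7.36) and Xist (8.71, the others 7.10 to 7.20). On array 2 it was Canx (8.47, the others 10.68 to 10.96). On array 4 these were Myt1 (7.29, the others 7.46), Prrx2 (7.83, the others 9.69 to 9.85) and Krt18 (8.68, the others 9.99 to 10.22).

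The remaining 4 values lay outside the runs. Otx2 read 8.53 on array 3 (8.92 to 8.96 on the others), Syp 7.56 on array 1 (7.38 to 7.39) and Atp5b 9.82 on array 3 (10.34 to 10.43). Snai1, an inducer of epithelial to mesenchymal transition, read 15.86 on array 3, where the others read 7.13 to 8.05.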

How the results depend on the processing

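No paired analysis was possible because the labels give no replicate numbers that tie an array of one stage to an array of the other. The 880 control calls (299 higher, 581 lower) became 5612 (5509 and 103) under the scaling of the authors, 1364 (745 and 619) with median centring, 1801 (771 and 1030) with array weights, 519 (151 and 368) with the slide series as a block, and 417 (163 and 254) when only arrays 3 and 4 of GD9:00 were kept, a choice made after seeing the data. Leaving out 1 array in turn gave 402 to 860 calls (118 to 276 higher, 284 to 604 lower). Keeping the placeholder values gave 867 calls, no filter on dim probes 887, masking the low runs 1103, the compared arrays alone 699 and a trended robust fit 960. The 304 arsenic calls became 1816 under the authors' scaling, 765 with median centring, 459 with low runs masked and 1434 with array weights, and ran from 130 to 230 without 1 array. For the difference between the arms, where 0 were called, 1 probe was called with median centring, with array weights and with only arrays 3 and 4, and 0 to 1 without 1 array.

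Of 120 called genes named, 37 kept their call under every alternative run on them, among them all 15 leading falls and 8 of 15 leading rises. Under the authors' scaling these genes called lower lay above 0: Bmp7 (0.0649), Efnb2 (0.0876), Fgf15 (0.0302), Fzd3 (0.0338), P4ha1 (0.246), Egln1 (0.0764), Tcf3 (0.00702), Fgfr1 (0.0198), Mthfs (0.0281), Mark2 (0.346), Itga6 (0.191), Unc5c (0.0174) and Gart (0.176). Among genes not called, Xist was -0.596 with the slide block and ran from -0.592 to 1.62 without 1 array, Snai1 from -2.89 to 0.0159, and Eif2s3y from -0.288 to 0.0343. Eif2s3y was 0.532 under the authors' scaling, 0.0121 with array weights and 0.0342 with the slide block. The cause of these changes was not tested, other than that leaving out arrays leaves fewer samples.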
